A study of Mus musculus with 8 samples.

Results

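The genes described here are 9 complement components and receptors: the classical pathway proteases *C1ra* and *C1s1*, the convertase components *C2*, *C3*, *C4b* and *Cfb*, the inhibitor *Serping1*, and the anaphylatoxin receptors *C3ar1* and *C5ar1*. They were found by symbol among the 54532 entries of the deposited gene count table, and each of the 9 has an entry. RNAseq was carried out on primary lung fibroblasts (pFBs) of female mice on a C57/black background, with 4 wild type (WT) libraries and 4 homozygous (HOMO) libraries. HOMO mice carry a CRISPR/Cas9 knock-in of human IGFBP5, a secreted binding protein of insulin-like growth factors, expressed ubiquitously under the Ef1a1 promoter. The transgene is therefore not restricted to fibroblasts in these mice. WT mice lack it, and no cells were treated. The study's text speaks of the HOMO libraries as differing from mouse to mouse. The numbers and ages of the mice, the mice behind each library and whether cultures were separate are not given in the sources used here, so p-values measure only the spread between these samples, which may be technical.

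Complement is a cascade of plasma and tissue proteins that marks targets for removal. In the classical pathway, C1q binds a target and activates the paired proteases C1r and C1s, and C1s cleaves C4 and C2. The fragments form an enzyme that cleaves C3, and factor B builds the corresponding enzyme of the alternative pathway. Cleavage of C3 and C5 releases the anaphylatoxins C3a and C5a, small peptides that act on their receptors on myeloid and other cells. The liver makes most of the plasma components, while fibroblasts are a known local source of several of them.

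Between 17236521 and 31987790 reads were counted per library. Levels are given as CPM, counts scaled to library sizes that edgeR's TMM method had adjusted, and 3 counts corresponded to between 0.0908 and 0.172 CPM, a floor that covers counting error only. Libraries came in near-identical pairs, WT1 with WT2, HOMO1 with HOMO2 and HOMO3 with HOMO4. Their biological coefficients of variation were 4.71 to 7.65%, where the remaining pairs within a genotype had 30 to 56.4%. The counts of each pair still differed beyond sampling noise, with a chi-square per degree of freedom of at least 4.07. Repeat libraries of the same culture could differ in this way too, so the test cannot show that the pairs are separate replicates. All 8 were kept as deposited, and SDs, SEs and p-values count each of them. Calls of complement genes are given also with each such pair summed. The human transgene was not analysed here, and mouse *Igfbp5* had 130, 225, 7130 and 112 counts over the WT libraries and 24, 37, 37 and 57 over the HOMO libraries, which sets WT3 apart. The study, without showing the data, calls mouse *Igfbp5* undetectable in both genotypes, whereas every library had counts here. The reason for this difference was not tested. The summed level of 9 fibroblast markers was between 12937 and 24381 CPM, with *Col1a1*, *Col1a2* and *Vim* the most abundant in every library. Other markers of the list varied more, such as *Lum* from 4.07 CPM in WT3 to 94.1 CPM in WT4. *Thy1* ranged from 22.3 CPM in HOMO2 to 264 CPM in WT2.

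Of the 9 members, 8 passed edgeR's filter on low counts and were among the 14150 genes that its quasi-likelihood F test (two-sided) compared between genotypes. The thresholds for a call were those of the study's methods, a Benjamini-Hochberg adjusted p below 0.05 over all tested genes and a log2 fold change beyond 0.6 in size. Of the 8 tested members, 0 were called by edgeR, against 12.1% of all tested genes, while 5 had an unadjusted p under 0.05, against 32.3% of all. Their log2 fold changes (HOMO over WT, here and below) were positive for 4 members and negative for 4, with a median of −0.08 beside a median of −0.04 over all tested genes. DESeq2, the tool of the study, called 4 members (*C3* up, *Serping1*, *C3ar1* and *C5ar1* down) beside 16.5% of the genes to which it gave an adjusted p. In limma-voom with sample weights 5 members were called (*C1ra*, *C1s1*, *C2* and *C3* up, *Serping1* down) beside 25.3% of genes. With the near-identical pairs summed, edgeR called 0 of all genes and the lowest adjusted p of a member was 0.376.

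**Figure D1:**
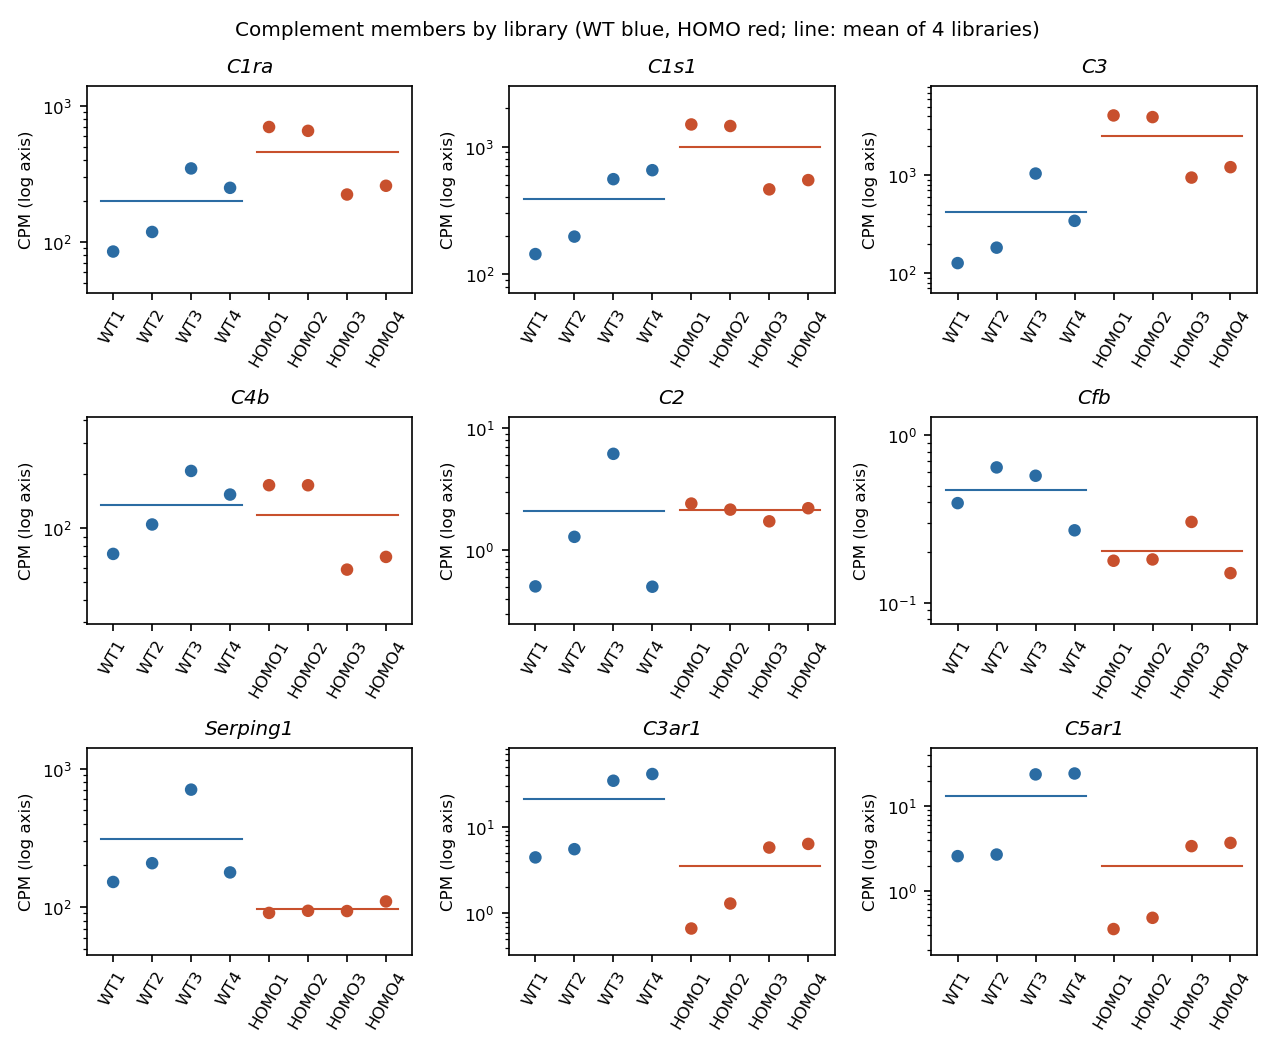
Level of each of the 9 members (CPM, log axis) in WT1 to WT4 (blue) and HOMO1 to HOMO4 (red), with a line at the mean of each genotype. *C1ra*, *C1s1* and *C3* are highest in HOMO1 and HOMO2, *C3ar1* and *C5ar1* are highest in WT3 and WT4, and *Serping1* is the member whose genotypes do not overlap.

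**Figure D2:**
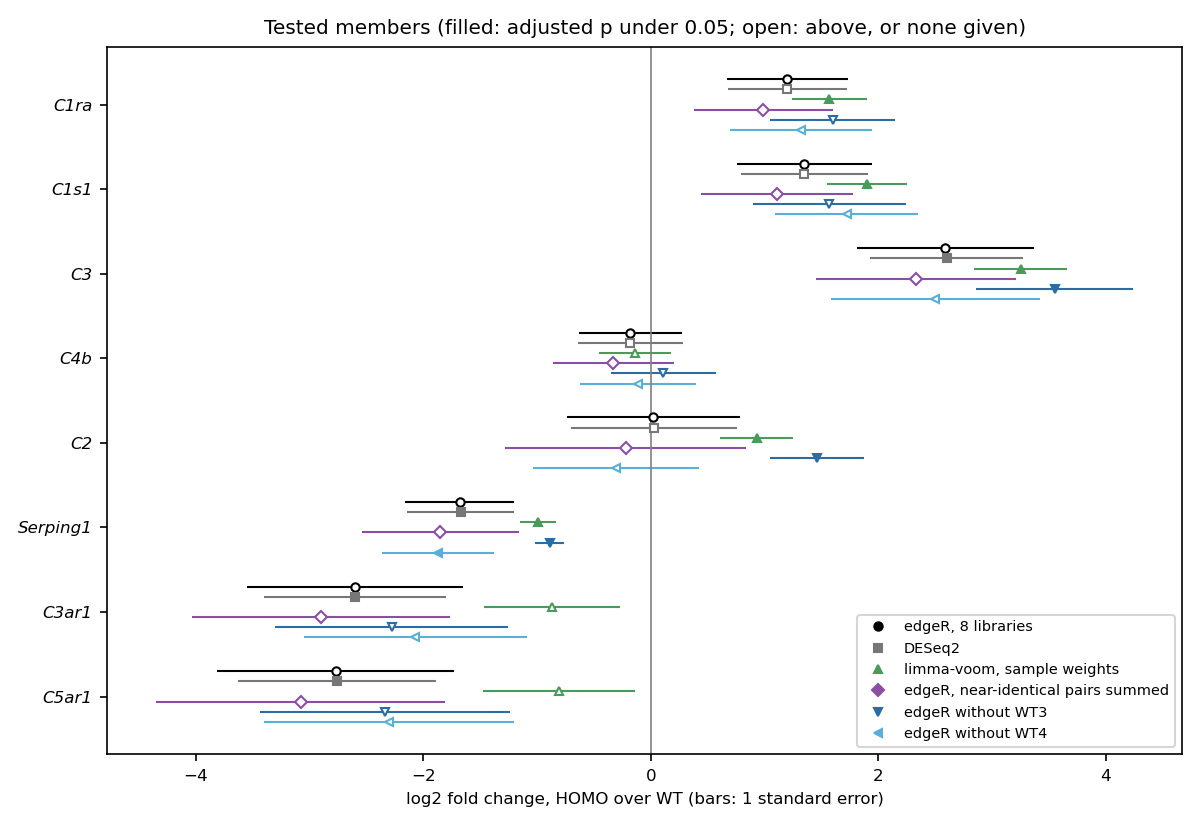
Log2 fold change of each tested member (HOMO over WT, with 1 standard error) in edgeR, in DESeq2, in limma-voom with sample weights, with near-identical pairs summed, and without WT3 or WT4. *C3* lies between 2.33 and 3.55 in the fits drawn, while *C2* and *C4b* lie on both sides of 0.

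Expressed per kb of exon, so that genes can be set beside each other, the members ranged from 289 to 0.119 CPM per kb. *C3* had the highest mean level over the 8 libraries (289 CPM per kb), followed by *C1s1* (220.0), *C1ra* (111), *Serping1* (87.8) and *C4b* (22.3). The receptors *C5ar1* (2.99) and *C3ar1* (2.88) were far lower, and *C2* (0.546) and *Cfb* (0.119) were lower still. Exons shared with another annotated gene, described below, may lower the levels of *C2* and *Cfb*. Not every step of this order held within the libraries. *C3* exceeded *C1s1* in 4 of 4 HOMO libraries but in 1 of 4 WT libraries, and *C1ra* exceeded *Serping1* in the same numbers of libraries. *C5ar1* and *C3ar1* did not differ beyond their spread, with *C5ar1* per kb between 0.623 and 1.17 times *C3ar1*. By contrast, *C1s1* was above *C1ra*, *Serping1* above *C4b*, and *C4b* above *C5ar1* in all 8 libraries.

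**Figure D3:**
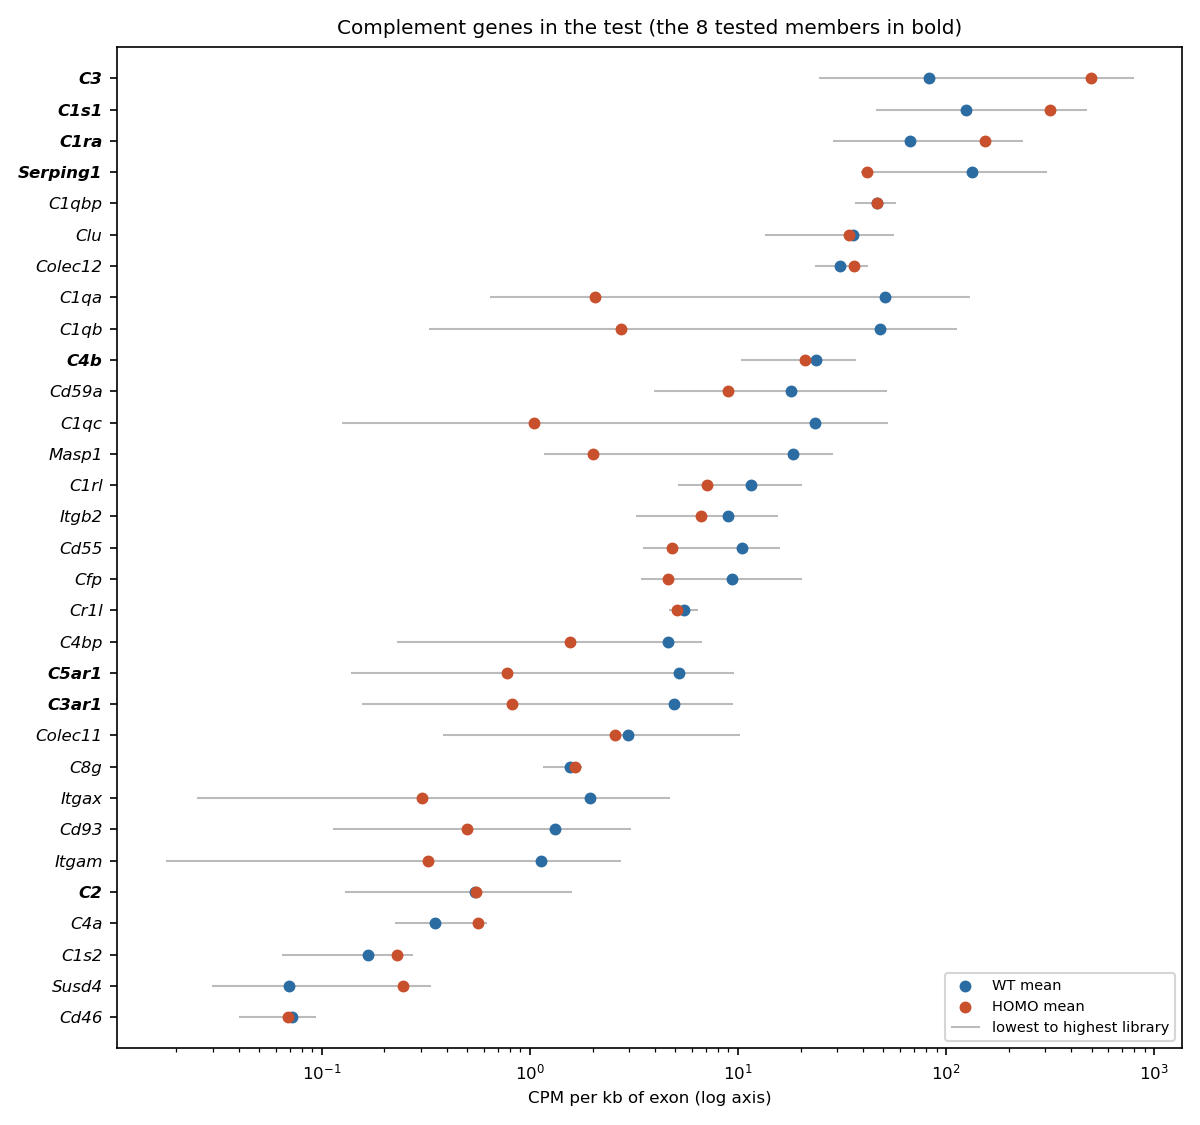
Mean level per kb of exon (CPM per kb, log axis) of complement genes in the edgeR test, in WT (blue) and HOMO (red), with a grey line from the lowest to the highest library and the 8 tested members in bold. *C3*, *C1s1*, *C1ra* and *Serping1* are the most abundant genes drawn, and the lines of *C1qa*, *C1qb* and *C1qc* are among the longest.

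*C1ra* and *C1s1* encode the paired serine proteases of the C1 complex. They are neighbours on chromosome 6 (GRCm38, the build also called mm10), *C1ra* at 124512405-124523443 on the plus strand and *C1s1* at 124530345-124542359 on the minus strand, with 6.9 kb between their ends. *C1ra* was measured at 85.3, 119, 348 and 251 CPM in WT1 to WT4 and at 701, 657, 224 and 259 CPM in HOMO1 to HOMO4. HOMO1 and HOMO2 were above every WT library, while HOMO3 and HOMO4 lay within the WT range. The mean was 201 ± 121 CPM in WT and 460.1 ± 253 CPM in HOMO (SD, n = 4 each), and the log2 fold change was 1.20 ± 0.53 (SE, adjusted p = 0.160 in edgeR).

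*C1s1* was measured at 144, 198, 556 and 654 CPM in WT1 to WT4 and at 1491, 1450.0, 463 and 547 CPM in HOMO1 to HOMO4. As for *C1ra*, HOMO1 and HOMO2 were highest, WT1 and WT2 were lowest, and HOMO3 and HOMO4 lay within the WT range. Its log2 fold change was 1.35 ± 0.59 (SE, adjusted p = 0.151 in edgeR). The ratio of *C1s1* to *C1ra* per kb stayed between 1.97 and 2.10 in HOMO, and was 1.61, 1.58, 1.52 and 2.49 in WT1 to WT4. Over the 8 libraries, which hold the 3 near-identical pairs, the log2 CPM of both genes had a Pearson r of 0.98. Both were called in limma-voom with sample weights, at 1.57 (adjusted p = 0.00413) for *C1ra* and 1.90 (adjusted p = 0.00212) for *C1s1*. With the near-identical pairs summed, edgeR gave 0.99 (adjusted p = 0.513) and 1.11 (adjusted p = 0.501).

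The mouse genome holds a further copy of each protease gene, so part of the reads cannot be placed in a single gene. Longest transcripts of *C1ra* and *C1rb* were 98.0% identical where aligned, and 34.5% of the 100-base windows of *C1ra* occurred in *C1rb* too. For *C1s1* and *C1s2* these values were 95.9% and 6.9%. *C1rb* held at most 0.132% of the counts of *C1ra* and *C1rb* together, and *C1s2* at most 0.505% of those of *C1s1* and *C1s2*. In addition, 18.41% of the exon bases of *C1s1* overlap *Gm16567* on the opposite strand, a gene with 0 counts in every library. Whether the counting used strand is not given in the sources used here.

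*C3*, the central component on which the pathways converge, lies on chromosome 17 (57203970-57228136, minus strand). It was measured at 127, 182, 1042 and 343 CPM in WT1 to WT4 and at 4095, 3938, 948 and 1212 CPM in HOMO1 to HOMO4. HOMO1, HOMO2 and HOMO4 were above every WT library, and the genotypes overlapped only because WT3 was above HOMO3. The mean was 423 ± 423 CPM in WT and 2548 ± 1700.0 CPM in HOMO (SD, n = 4 each), a ratio of 6.02. The log2 fold change of 2.59 ± 0.78 (SE, adjusted p = 0.0593 in edgeR) was not called, whereas DESeq2 gave an adjusted p of 0.00171. Without WT3, edgeR called *C3* at 3.55 (adjusted p = 0.0150), and with the near-identical pairs summed it gave 2.33 (adjusted p = 0.379).

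*C4b* encodes C4, the substrate of C1s, and lies on chromosome 17 (34728380-34743882, minus strand). It was measured at 72.0, 105, 209 and 154 CPM in WT1 to WT4 and at 174, 174, 58.8 and 69.3 CPM in HOMO1 to HOMO4. The lowest libraries were HOMO3 and HOMO4, and the genotypes overlapped widely. Its log2 fold change was −0.18 ± 0.45 (SE, adjusted p = 0.812 in edgeR), and it became 0.11 without WT3. The longest transcripts of *C4b* and its copy *C4a* were 96.1% identical where aligned and shared 15.2% of the 100-base windows of *C4b*. *C4a* held between 0.789 and 6.14% of the counts of both.

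*C2* and *Cfb* encode the homologous proteases C2 and factor B, which supply the catalytic parts of the classical and alternative C3 convertases. They are adjacent on chromosome 17, *C2* at 34862604-34898265 and *Cfb* at 34856374-34862518, both on the minus strand. The annotated gene *Gm20547* covers 42.77% of the exon bases of *C2* and 79.5% of those of *Cfb* on the same strand, and it had 0 counts in every library. How reads in shared exons were counted is not given in the sources used here, so the levels of *C2* and *Cfb* may be too low. *C2* was measured at 0.506, 1.29, 6.14 and 0.503 CPM in WT1 to WT4 and at 2.41, 2.15, 1.72 and 2.21 CPM in HOMO1 to HOMO4. The HOMO libraries were close together, and WT3 stood above all of them while the other WT libraries stood below. The log2 fold change was 0.02 ± 0.76 (SE, adjusted p = 0.989 in edgeR), but without WT3 it was 1.46 ± 0.41 (SE, adjusted p = 0.0443) and passed the call. In limma-voom with sample weights it was 0.93 over all 8 libraries (adjusted p = 0.0404) and passed the call too. With the near-identical pairs summed it was −0.22 (adjusted p = 0.945 in edgeR).

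*Cfb* did not pass the filter. It had 7, 15, 10 and 7 counts over WT1 to WT4, against 4, 6, 6 and 3 over HOMO1 to HOMO4. The WT mean was 0.471 ± 0.170 CPM and the HOMO mean 0.204 ± 0.0685 CPM (SD, n = 4 each), with HOMO3 above WT4. The two-sided exact permutation p over the 70 assignments of libraries to genotypes was 0.0571 on CPM, where 0.0286 is the smallest such a test can give. These assignments treat the near-identical pairs as separate libraries. *Cfb* thus had between 3 and 15 counts per library, against a floor of 3.

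Since *C3*, *C1ra* and *C1s1* had the same highest (HOMO1 and HOMO2) and lowest (WT1 and WT2) libraries, their promoters are shown here. RefSeq promoters (GRCm38.p6, 250 bases before to 50 after the start site) were at hand for 5 of the 9 members, *C1ra*, *C1s1*, *C3*, *C3ar1* and *C5ar1*, and *C1s1* has 2 annotated starts, of which the upstream one is shown. Each line below gives the 250 bases before the RefSeq start, 5′ to 3′ on the gene's strand. Capitals mark a match to the motifs searched. The RefSeq start of *C1ra* lies inside the gene span given above, which is from another annotation (GENCODE). Most of the *C1ra* line therefore falls within that span rather than before it.
C3 (chr17:57228137-57228386, minus strand): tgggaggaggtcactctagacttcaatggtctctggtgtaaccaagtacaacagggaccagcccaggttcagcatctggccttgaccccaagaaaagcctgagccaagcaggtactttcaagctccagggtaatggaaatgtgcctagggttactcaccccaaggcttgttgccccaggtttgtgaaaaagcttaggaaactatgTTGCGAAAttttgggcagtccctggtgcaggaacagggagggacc
C1ra (chr6:124512371-124512620, plus strand): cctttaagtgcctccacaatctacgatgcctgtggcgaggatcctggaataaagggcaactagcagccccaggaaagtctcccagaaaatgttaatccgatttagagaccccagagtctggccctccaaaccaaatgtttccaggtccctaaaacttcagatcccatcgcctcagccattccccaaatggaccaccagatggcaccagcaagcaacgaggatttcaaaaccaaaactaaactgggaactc
C1s1 (chr6:124542360-124542609, minus strand): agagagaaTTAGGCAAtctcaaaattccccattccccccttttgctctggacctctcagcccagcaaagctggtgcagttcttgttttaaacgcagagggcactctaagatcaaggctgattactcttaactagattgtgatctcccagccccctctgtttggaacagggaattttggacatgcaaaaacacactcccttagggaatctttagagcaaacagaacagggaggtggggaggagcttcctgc

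Motifs named after transcription factors of inflammation were searched on both strands of the 300 bases: TTGCNNAA (C/EBP-like, present in 10.8% of 32851 promoters), TTCNNNGAA (STAT-like, 8.3%), GAAA and again GAAA with 2 bases between them (IRF-like, 3.4%), and GGGA and TTCC with 2 bases between them (NF-kB-like, 1.5%). The *C3* promoter held TTGCGAAA with its first base 45 bases before the start site. The *C1s1* promoter held TTAGGCAA, and the *C1ra* promoter held TTATGCAA and TTCCCTGAA just after its RefSeq start. None of the motifs was found in the promoters of *C3ar1* and *C5ar1*. The RefSeq start of *C5ar1* also lies inside its GENCODE span, which holds most of the bases taken as before the start. The matches describe the letters in these windows and show neither binding nor a cause.

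*Serping1* encodes C1 inhibitor, which inactivates C1r and C1s, and lies on chromosome 2 (84765387-84775444, minus strand). It was measured at 152, 208, 707 and 178 CPM in WT1 to WT4 and at 90.8, 94.1, 93.7 and 109.9 CPM in HOMO1 to HOMO4. All HOMO libraries were below all WT libraries, which was the case for 13.4% of tested genes. All HOMO libraries were above all WT libraries for none of the 8 tested members and for 14.0% of tested genes. The HOMO libraries were within 1.21-fold of each other, whereas WT3 was far above the other WT libraries. The mean was 311 ± 265 CPM in WT and 97.1 ± 8.67 CPM in HOMO (SD, n = 4 each). The log2 fold change of −1.68 ± 0.48 (SE, adjusted p = 0.0509 in edgeR) was just short of a call. Without WT3 it was −0.89 ± 0.13 (SE, adjusted p = 0.00604) and *Serping1* was called, as it was without WT1 or WT4 and by DESeq2 (adjusted p = 0.00442), but not with the near-identical pairs summed (−1.85, adjusted p = 0.376).

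The proteases and their inhibitor thus stood in different proportions in the libraries. The summed level of *C1ra* and *C1s1* per kb was 1.14, 1.15, 0.968 and 3.82 times that of *Serping1* in WT1 to WT4 and 18.2, 16.9, 5.53 and 5.54 times in HOMO1 to HOMO4. Likewise, *C3* per kb was 1.95, 1.92, 5.52 and 2.46 times *C4b* in WT1 to WT4 and 26.0, 25.1, 17.8 and 19.4 times in HOMO1 to HOMO4. In both ratios every HOMO library was above every WT library. Levels of single genes did not overlap between genotypes for 27.3% of tested genes, and no such share was computed for ratios. The near-identical pairs count as separate libraries here too. The ratios were chosen after their values were seen and were not tested.

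**Figure D4:**
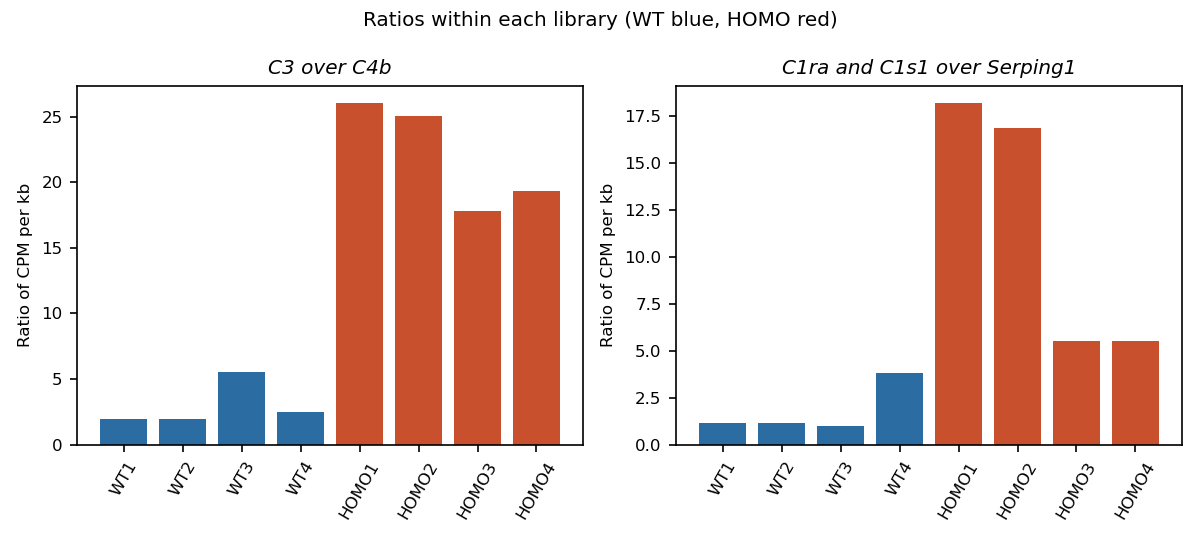
Ratios of levels per kb of exon within each library, *C3* over *C4b* (left) and the sum of *C1ra* and *C1s1* over *Serping1* (right), with WT1 to WT4 in blue and HOMO1 to HOMO4 in red. The bars of HOMO1 and HOMO2 are the tallest in both panels, and the tallest WT bars are 5.52 in WT3 (left) and 3.82 in WT4 (right).

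*C3ar1* and *C5ar1* encode the G protein-coupled receptors of C3a and C5a. They lie on different chromosomes, *C3ar1* on chromosome 6 (122847138-122856161, minus strand) and *C5ar1* on chromosome 7 (16246743-16259540, minus strand). *C3ar1* was measured at 4.44, 5.53, 34.3 and 41.0 CPM in WT1 to WT4 and at 0.669, 1.30, 5.78 and 6.37 CPM in HOMO1 to HOMO4. WT3 and WT4 were the highest and HOMO1 and HOMO2 the lowest, while HOMO3 and HOMO4 lay above WT1 and WT2. The log2 fold change was −2.60 ± 0.95 (SE, adjusted p = 0.0997 in edgeR; DESeq2 adjusted p = 0.0109).

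*C5ar1* was measured at 2.59, 2.70, 23.9 and 24.5 CPM in WT1 to WT4 and at 0.357, 0.484, 3.40 and 3.71 CPM in HOMO1 to HOMO4. Its libraries fell in the same order as those of *C3ar1*, with the genotypes overlapping in the same way. The log2 fold change was −2.77 ± 1.04 (SE, adjusted p = 0.107 in edgeR; DESeq2 adjusted p = 0.0127). The study names both receptors as downregulated on these same samples, so their direction here is not independent evidence. It also lists the complement and coagulation cascades among its enriched pathways, which was not tested here. In limma-voom with sample weights, the log2 fold changes of the receptors shrank to −0.87 (*C3ar1*) and −0.81 (*C5ar1*) and were not called. With the near-identical pairs summed, edgeR gave an adjusted p of 0.380 for *C3ar1* and 0.390 for *C5ar1*, and DESeq2 gave 0.0492 and 0.0562. The median level of chromosome 7 genes stood 0.36 on the log2 scale above the other WT libraries in WT3, and the medians for chromosomes 2, 6 and 17, which hold the other members, were shifted by at most 0.09 in any library.

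Both receptors are also well known from macrophages, and macrophage markers followed the same libraries. The summed level of 15 macrophage markers was 163, 197, 2425 and 1563 CPM in WT1 to WT4 and 67.2, 72.9, 224 and 252 CPM in HOMO1 to HOMO4. For 13 of the 15, WT3 and WT4 were the highest libraries, and for 11 of the 15 HOMO1 and HOMO2 were the lowest. No marker was at or under 3 counts in every library, although *Marco* and *Aif1* had 0 counts in WT1 and WT2, and *Marco* also in HOMO1 and HOMO2. *Lyz2*, named here after its values were seen, was the most abundant, from 12.9 CPM in HOMO2 to 1707 CPM in WT3. Of the 13 markers tested, 0 were called by edgeR, against 12.1% of all tested genes, and 9 had an unadjusted p under 0.05, against 32.3%. DESeq2 called 6, all down, against 16.5% of genes in either direction. Log2 fold changes in edgeR were negative for 12 of the 13 and positive for *Cd14* (0.25). Set against the marker sum, *C3ar1* was 27.3, 28.04, 14.1 and 26.2 CPM per 1000 CPM of markers in WT1 to WT4 and 9.95, 17.9, 25.8 and 25.3 in HOMO1 to HOMO4. The part of macrophages in the receptor levels was not tested, and in such bulk samples fewer cells of a type and less RNA per cell cannot be told apart.

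**Figure D5:**
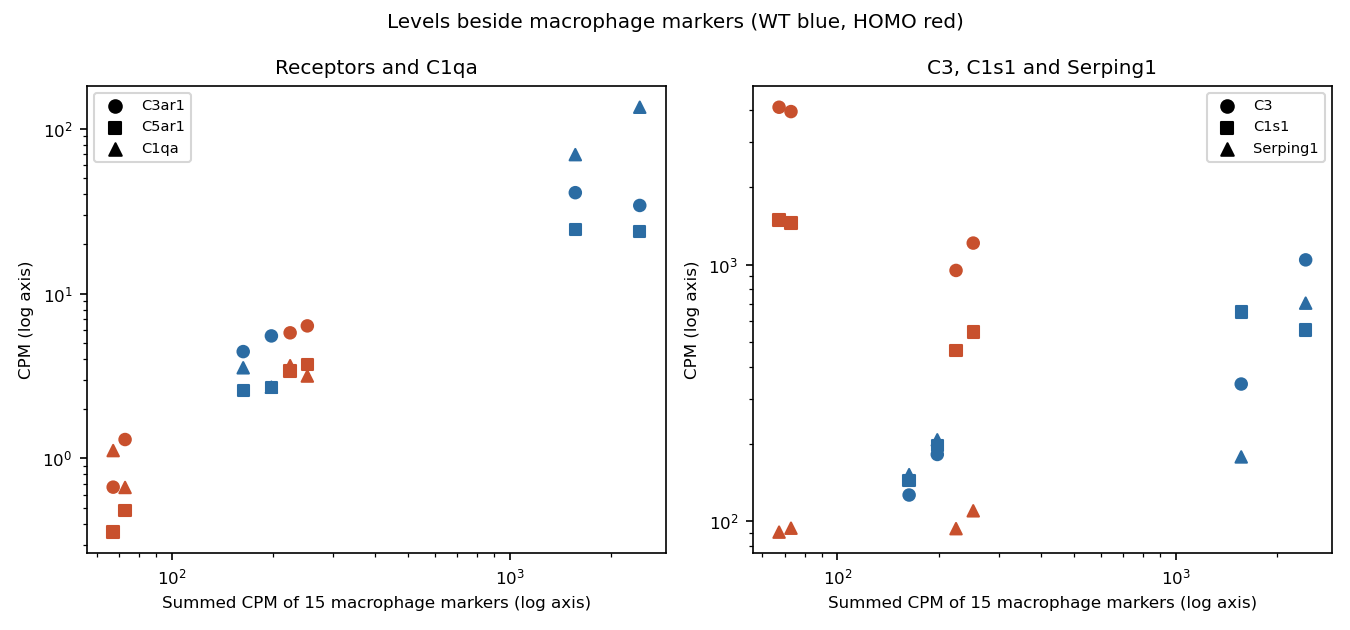
Levels of *C3ar1*, *C5ar1* and *C1qa* (left) and of *C3*, *C1s1* and *Serping1* (right) in CPM against the summed CPM of 15 macrophage markers, both on log axes, with 1 symbol per library (WT blue, HOMO red). The receptors and *C1qa* are highest in WT3 and WT4, where the marker sum is 2425 and 1563 CPM, while *C3* is highest in HOMO1 and HOMO2, where the sum is 67.2 and 72.9 CPM.

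Markers of other cell types were set beside the members as well. The summed levels of 8 neutrophil and 7 lymphocyte markers were at most 0.929 and 1.62 CPM in any library. The 8 endothelial markers reached at most 8.13 CPM and the 10 epithelial markers at most 17.03 CPM, the latter in HOMO3. Mesothelial markers summed to between 51.8 and 164 CPM in WT and between 98.8 and 142 CPM in HOMO. The genes of these lists named below were chosen after their values were seen. Of 6 mesothelial markers, 4 had positive and 2 negative log2 fold changes, and *Wt1* was called up (3.36), while *Krt19* had −3.06 and was called down by DESeq2 (adjusted p = 0.00469) but not by edgeR (0.0856). Of 10 epithelial markers, 3 were tested in edgeR and *Cdh1* was called up (2.77). DESeq2 called 3 of the 10, all up: *Cdh1*, *Sftpc* (adjusted p = 0.00113) and *Scgb1a1* (adjusted p = 0.000336). *Sftpc* had 48 counts in HOMO2 and 99 in HOMO3, and *Scgb1a1* had 110 and 130. Both had 3 or fewer in every other library, HOMO1 and HOMO4 included. *Epcam* and *Krt8* were instead highest in HOMO4, with 45 and 96 counts, against at most 1 and 16 in any other library. Of 9 fibroblast markers, 4 had positive and 5 negative log2 fold changes, and edgeR called *Pdgfrb* and *Vim* down (−0.97 and −0.65). DESeq2 called 5 of these 9, the collagen genes *Col1a1* and *Col1a2* up (0.81 and 0.66) and *Pdgfrb*, *Vim* and *Thy1* down. Its share over all genes with an adjusted p was 16.5%. The part of these cell types in the members' levels was not tested.

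A wider list of 51 further complement genes was examined in the same fit. Of these, 24 were tested, 15 had 3 or fewer counts in every library, and edgeR called 1 up and 1 down, against 5.94% and 6.18% of all tested genes. The median log2 fold change of the 24 was −0.57, with 5 positive and 19 negative. DESeq2 called 7 of the list, 1 up and 6 down, beside 16.5% of the genes to which it gave an adjusted p.

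*Masp1*, on chromosome 16, encodes a protease of the lectin pathway and was the called decrease. It was measured at 205, 210, 281 and 28.1 CPM in WT1 to WT4 and at 11.5, 12.9, 25.5 and 28.9 CPM in HOMO1 to HOMO4. WT1, WT2 and WT3 were far above the HOMO libraries, but WT4 lay within their range. It fell by 3.20 on the log2 scale (SE 0.65, adjusted p = 0.0181 in edgeR). It was called in 6 of the 8 fits that leave out 1 library, but not without HOMO1 or HOMO2. With the pairs summed, edgeR gave an adjusted p of 0.338 and called 0 of all genes, while DESeq2 still called *Masp1*.

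*Susd4*, on chromosome 1, encodes a membrane protein known to restrain complement and was the called increase, at a low level. Its counts were 4, 8, 2 and 10 over WT1 to WT4, all below the 29, 16, 18 and 22 over HOMO1 to HOMO4. It rose by 1.76 on the log2 scale (SE 0.48, adjusted p = 0.0447 in edgeR). The call was kept in 1 of the 8 fits that leave out 1 library, that without WT4, and with the pairs summed the adjusted p was 0.386.

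The C1q chains, which form the recognition part of C1, followed the receptors rather than *C1ra* and *C1s1*. *C1qa*, on chromosome 4, was measured at 3.54, 2.70, 135 and 69.7 CPM in WT1 to WT4 and at 1.11, 0.666, 3.65 and 3.16 CPM in HOMO1 to HOMO4. WT3 and WT4 were again far above all other libraries, and the genotypes overlapped. The log2 fold changes of *C1qa*, *C1qb* and *C1qc* were −4.64, −4.14 and −4.51 (edgeR adjusted p = 0.0502, 0.0735 and 0.0556), and DESeq2 called all of them. With the near-identical pairs summed, the edgeR adjusted p was between 0.342 and 0.373, and DESeq2 still called each of them. The summed C1q chains were 148 and 140.0 CPM per 1000 CPM of macrophage markers in WT3 and WT4 and between 23.3 and 64.8 in the other 6 libraries.

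The most abundant genes per kb in the other roles of the list described here were not called. *Cd59a*, a membrane inhibitor of the terminal complex, was measured between 7.14 and 94.7 CPM in WT and between 10.04 and 22.7 CPM in HOMO (edgeR adjusted p = 0.413). *Colec12*, a scavenger receptor collectin, and *C1qbp*, a C1q-binding protein found mainly in mitochondria, were steadier, with log2 fold changes of 0.23 ± 0.18 (SE) and −0.01 ± 0.18 (SE). *C1rl*, a C1r-like protease gene 1.8 kb from *C1ra*, had a log2 fold change of −0.72 ± 0.33 (SE, adjusted p = 0.176 in edgeR), with WT4 highest at 61.3 CPM. *Cfp*, which encodes properdin, the stabilizer of the alternative convertase, had −1.02 ± 0.54 (SE, adjusted p = 0.225 in edgeR), and was highest in WT3 at 35.2 CPM. Of 7 terminal component genes only *C8g* was tested, at 0.07 ± 0.26 (SE, adjusted p = 0.876 in edgeR), and of these 4 were at or under 3 counts in every library.

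Outside the test were 27 genes of this list. Over the 70 assignments, *Cfi* and *Csmd1* reached the smallest possible two-sided exact permutation p of 0.0286, and are named after their values were seen. Such a p means only that the genotypes do not overlap, which held for 27.3% of tested genes in either direction. The assignments also treat the near-identical pairs as separate libraries. *Cfi*, whose product cleaves C3b and C4b, had 0, 0, 2 and 0 counts over WT1 to WT4 and 3, 6, 3 and 4 over HOMO1 to HOMO4. *Csmd1*, a membrane regulator, had 10, 24, 3 and 5 counts over WT1 to WT4 and 0, 0, 2 and 1 over HOMO1 to HOMO4. DESeq2, which tested without edgeR's filter, called *Csmd1* (−3.85, adjusted p = 0.0147), though not with the near-identical pairs summed, and gave no adjusted p for *Cfi*.

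The genes whose log2 CPM was most like that of the leading member of each role were taken from all tested genes over the 8 libraries, as a description. For *C3* these were *Ltbp3*, *Eif4a2* and *Zdhhc1*, with Pearson r between 0.992 and 0.995. Their levels varied over a narrower range than *C3*, for instance from 209 CPM (WT1) to 579 CPM (HOMO2) for *Eif4a2*, which was called (log2 fold change 0.86, edgeR adjusted p = 0.0391). For *Serping1* they were *Gm9844*, *Bnip2* and *Elp5* (r between 0.992 and 0.993), all highest in WT3. For *C3ar1* they were *Adgre1*, which encodes the macrophage antigen F4/80 and is on the macrophage list, *C5ar1* and the leukocyte gene *Cd53*, with r of 0.996, 0.996 and 0.994. Near-identical pairs add to such values, since a pair counts as 2 points.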

How the data were processed

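The data are gene counts from 8 poly-A RNAseq libraries of pFBs, 4 WT and 4 HOMO. Before deposition the authors ran fastp on the reads, STAR against mm10 and featureCounts per gene. The deposited counts are not normalized. Tool versions, the annotation and the strand setting are not given in the sources used here, and the counts carry an unexplained "outlierout" label. Samples were grouped by the genotype in their labels, and no sample column stayed unused (0 left aside). Members and lists were chosen with earlier results of these data known.

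Tools were edgeR 4.0.16, DESeq2 1.42.0 and limma 3.58.1 in R 4.3.3, and Python 3.11.15 (numpy 2.4.6, pandas 2.3.3, Biopython 1.88, matplotlib 3.10.9). The fits were also run on simulated counts of independent libraries. Those counts held no near-identical pairs, so they cannot show how the fits perform on such pairs. The main fit was edgeR's quasi-likelihood F test with TMM, filterByExpr by genotype and Benjamini-Hochberg adjustment, called at an adjusted p below 0.05 and a log2 fold change beyond 0.6 in size. Standard errors (SE) were computed from each log2 fold change and its F statistic, as the size of the former over the root of the latter. Log2 CPM has a prior count of 2, and genes outside the test were compared by exact permutation. Depth was 17236521 to 31987790 counts per library. Positions, exon overlap and lengths are from GENCODE M21 (GRCm38), and promoters from RefSeq. Alternatives were DESeq2, RLE normalization, no filter on low counts, limma-voom with sample weights, the replicate number as a block, near-identical pairs summed, leaving out each library, and the longest transcript as length.

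Named were the 9 members, the called gene and the most abundant gene per kb of each role of the wider list, macrophage markers called or at the floor, and for *C3*, *Serping1* and *C3ar1* the 3 genes with the highest r. The human transgene, qPCR and protein measurements were not analysed here. A gene that meets the naming rule is not reported here.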

Additional observations from a re-analysis of the deposited data

Results flagged for a closer look

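In 3 of 66 groups of 4 libraries examined (the members and the tested genes of the wider list, in WT and in HOMO), a library lay apart from the others on the log2 CPM scale by a gap, as a share of the group's range, above Dixon's 95% critical value. Chance alone gives this in about 1 of 20 groups of independent values. The near-identical pairs may not be independent, so that rate may not hold here. For *Masp1* it was WT4, at 28.1 CPM against 205 to 281 CPM in the other WT libraries (gap 0.862 of the range). For *C4bp*, which encodes a C4b-binding regulator, it was WT3, at 1.55 CPM against 37.7 to 45.4 CPM (0.944). For *C8g* it was HOMO1, at 2.01 CPM against 2.60 to 2.64 CPM (0.953). No member was among them.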

How the results depend on the processing

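The number of members called depended on the processing: 0 in edgeR, 4 in DESeq2, 5 in limma-voom with sample weights, 2 without a filter on low counts (*C3* and *Serping1*), 1 with RLE normalization (*Serping1*) and 0 with near-identical pairs summed. With these pairs summed, DESeq2 (chosen after seeing the data) called 1 (*C3ar1*). Leaving out each library gave 0 to 3 members called, 0 to 3 of the wider list, 0 to 1 macrophage markers and 507 to 2192 of all genes. Of the wider list, edgeR called 2, DESeq2 7, limma-voom 7, the fit with pairs summed 0 and DESeq2 on summed pairs 4. Of the macrophage markers, DESeq2 called 6 and DESeq2 on summed pairs 3, while limma-voom and the fit without WT3 each called 1, *Cd14*, whose log2 fold change in edgeR was positive (0.25). Over all genes, edgeR called 1716, DESeq2 2913, limma-voom 3573, the fit with pairs summed 0 (2057 at an unadjusted p under 0.05) and DESeq2 on summed pairs 735. The sign turned for *C2* (−0.22 with pairs summed in both tools, −0.31 to 1.46 on leaving out a library) and *C4b* (−0.42 to 0.11 on leaving out a library). The other 6 tested members kept their sign in every fit. By longest transcript, 7 of 9 members kept their place in the order of levels, and *Serping1* moved above *C1ra*. The causes were not tested.

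Replicate numbers did not pair the libraries: deviations from the genotype means had r between −0.124 and 0.0141 for same-numbered libraries, and none correlated best with its own number. With the replicate block, 2 members (*C3ar1*, −2.51, and *C5ar1*, −2.71), 4 of the wider list (*C1qb*, *C1qc*, *Itgax* and *Cd93*, but neither *Masp1* nor *Susd4*), 9 macrophage markers and 947 of all genes were called. Low counts limit *Cfb*, *Cfi* and *Csmd1*, which had at most 15, 6 and 24 counts in a library, against a floor of 3. For *Cfb*, exons shared with *Gm20547* may have lowered the counts whatever the depth.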
